A study of Homo sapiens with 22 samples.

Results

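KMS34 cells cultured without an NSD2 degrader were followed over time by ATAC-seq, and their open chromatin was the subject of the comparisons given here. The 6 libraries came from untreated cells at day 0 and from cells kept in DMSO, the solvent control, to day 4 and to day 10, with 2 libraries per time point. They are 6 of the 22 libraries of a study of NSD2 degradation in the myeloma lines KMS11 and KMS34; libraries treated with the degrader NSD2LDD were left out by the rule. Merging the peaks of the 6 lists on chromosomes 1 to 22 and X gave 67405 regions, against 96160 when all 22 lists were merged and 50587 for the 6 matching KMS11 lists. Every KMS34 library carries the label t(4;14). The day 0 libraries have no vehicle, so days in culture and DMSO cannot be told apart between day 0 and day 4, whereas day 4 and day 10 share the vehicle. The titles number the libraries of a day as duplicates and nothing says that these were separate cultures, so a p-value here reflects only the spread between the libraries at hand, which may be technical.

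ATAC-seq uses the Tn5 transposase to cut and tag DNA where nucleosomes leave it accessible, which marks active promoters, enhancers and insulators. KMS34 is an established line of multiple myeloma, a cancer of plasma cells. In t(4;14) myeloma an immunoglobulin heavy chain enhancer is joined to the NSD2 and FGFR3 locus on chromosome 4p. NSD2 writes dimethylation on lysine 36 of histone H3, a mark that spreads over active chromatin and opposes Polycomb repression. Control cells in such an experiment divide for days and are diluted into fresh medium repeatedly, so their own drift is the baseline against which a degrader is read.

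The lists held 40528 and 39161 peaks on day 0, 34165 and 52518 on day 4, and 49623 and 43576 on day 10, in the order replicate 1, replicate 2. Peaks covered 28.8 and 21.5 Mb, then 20.0 and 29.9 Mb, then 31.8 and 20.9 Mb. The longest and the shortest list were thus the duplicates of day 4, and duplicates differed in peak number and covered bases as much as the days did. The value used for a region or a gene is the length of it, in bases, that lies under peaks of a library. A gene counts with 5 kb either side, so its value can include peaks at neighbouring genes. The value is 0 where no peak was called. A site that was closed cannot be told from one sequenced too thinly, since the lists hold no read counts. Median covered lengths over the 25735 regions present in all 6 libraries were 790 and 611 bp on day 0, 603 and 732 bp on day 4, and 790 and 568 bp on day 10. Log2 differences were therefore taken after each library's median had been subtracted.

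**Figure D1:**
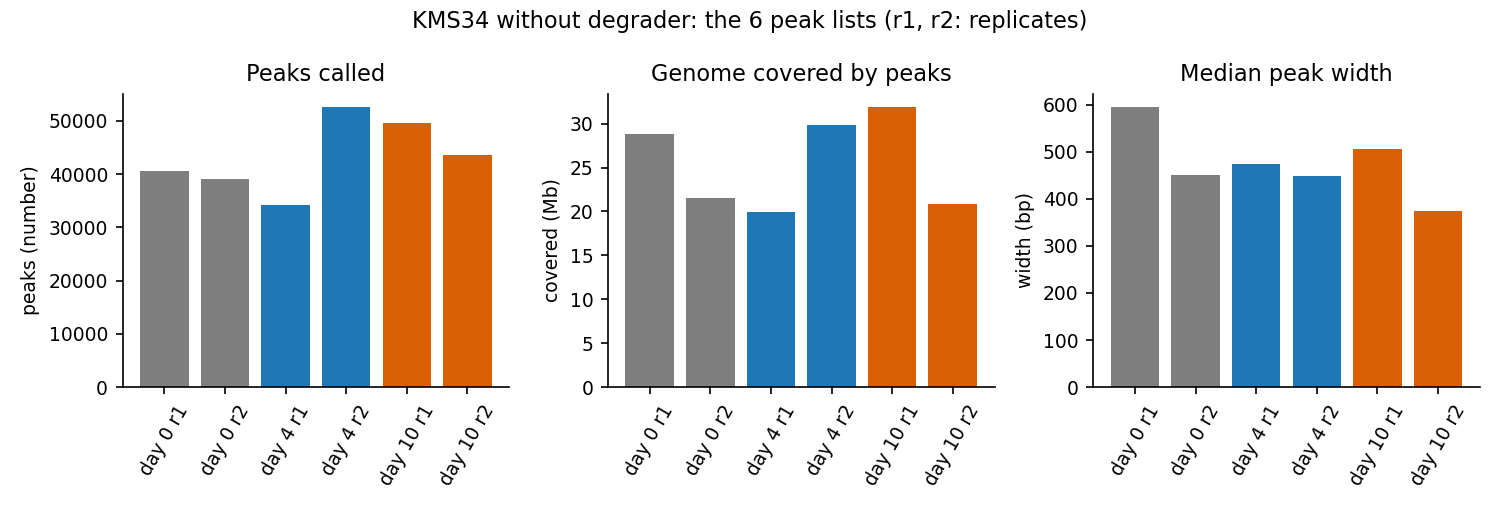
Number of peaks, bases covered by peaks (Mb) and median peak width (bp) in each of the 6 KMS34 libraries, with grey bars for day 0, blue for day 4 and orange for day 10. Peak number ranges from 34165 to 52518, both at day 4, and no day stands apart from the others.

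At promoters the open chromatin of KMS34 was largely shared across the 10 days, and elsewhere most regions were not found in every library. Of the 67405 regions, 25735 (38.2%) had a peak in all 6 libraries and 17778 (26.4%) in 1 library only. In 39951 regions (59.3%) the libraries of at least 1 day disagreed, 1 with a peak and 1 without. Regions within 1 kb of an end of a protein-coding gene were covered in all 6 libraries in 10195 of 12330 cases (82.7%). The share was 29.1% in bodies of protein-coding genes, 32.8% in bodies of other genes and 25.4% between genes. Over a RefSeq promoter window, which runs from 250 bases before to 50 after a gene's start, it reached 89.6%. By gene, counting the body and 5 kb either side, 14291 of 19821 protein-coding genes were covered in all 6 libraries, 538 in 1 library and 3291 in none.

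**Figure D2:**
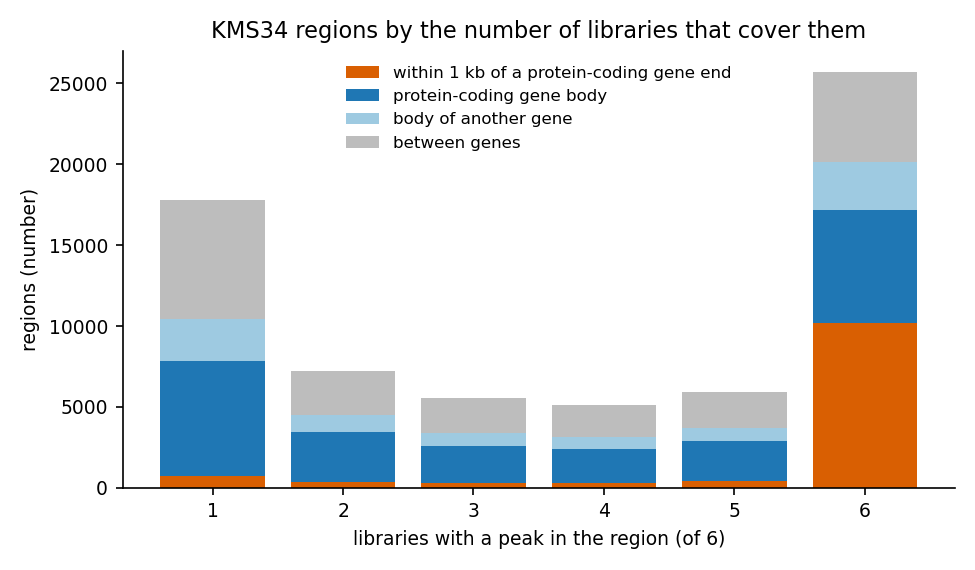
Regions (number) by how many of the 6 KMS34 libraries have a peak there, with colours for position relative to genes. The 2 tallest bars are the 25735 regions found in all 6 libraries, of which 39.6% lie at gene ends, and the 17778 regions found in 1 library, of which 4.00% do.

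Duplicates shared no more of their covered bases than libraries of different days did. The Jaccard index, the bases covered in both libraries divided by those covered in either, was 0.590 between the day 0 duplicates, 0.583 between those of day 4 and 0.551 between those of day 10. Across days it ran from 0.568 to 0.681 over 12 pairs, with a median of 0.595. The highest value joined day 4 replicate 2 to day 10 replicate 1, which also have the 2 longest lists. One library of each day fell in each of 2 sets. Day 0 replicate 1, day 4 replicate 2 and day 10 replicate 1, which cover 28.8 to 31.8 Mb, shared 0.638 to 0.681, and day 0 replicate 2, day 4 replicate 1 and day 10 replicate 2, which cover 20.0 to 21.5 Mb, shared 0.599 to 0.619. No pair across the sets exceeded 0.591, and the labels do not say what the libraries of a set have in common. Against KMS11 libraries the index was 0.275 to 0.488 over 36 pairs, so every pair within KMS34 was more alike than any pair of the 2 lines. Within a day, the regions covered in only 1 of the 2 duplicates made up 32.2% (day 0), 41.6% (day 4) and 33.9% (day 10) of those covered at all.

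The label of a myeloma line was checked against cell type markers. Of 10 plasma cell markers, 9 were covered in all 6 libraries, beside 14291 of all 19821 protein-coding genes. With so many genes covered, 9 of 10 does not by itself set plasma cell markers apart. The 9 include SDC1 (CD138, the plasma cell surface proteoglycan), PRDM1 (the factor that drives plasma cell differentiation), XBP1 and TNFRSF17 (BCMA). The other, SLAMF7, had 1131 and 1393 bp on day 0, 0 and 1157 bp on day 4, and 809 and 268 bp on day 10; a single library of day 4 lacked it. The B cell marker MS4A1 (CD20), the T cell marker CD3D, the myeloid marker MPO and the erythroid and platelet genes GATA1, HBB and PF4 were covered in no library. No myeloid marker of 5 was covered in all 6 libraries, and their summed covered bases were 659 to 661 bp on day 0, 357 to 1287 bp on day 4 and 390 to 704 bp on day 10. Some markers of other cells were open throughout: 4 of 5 T and NK cell markers, 3 of 5 B cell markers, 2 of 5 erythroid markers and 4 of 5 stromal and endothelial markers had peaks in all 6 libraries. Summed plasma cell markers covered 17988 to 24021 bp on day 0, 18764 to 24246 bp on day 4 and 16501 to 29094 bp on day 10, and these ranges overlap.

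No region passed the test between consecutive days. A linear model (limma, with a trended and robust variance estimate) was fitted to 49627 regions covered in at least 2 of the 6 libraries. From day 0 to day 4 it called 0 regions (0%) at a Benjamini-Hochberg adjusted p under 0.05, and the smallest adjusted p was 0.231. An unadjusted p under 0.05 was reached by 2265 regions (4.56%), 1186 of them (2.39%) higher and 1079 (2.17%) lower at day 4. The higher share was 52.4%, against 42.2% after quantile normalization and 41.7% with lists of equal length. From day 4 to day 10 it again called 0 regions (0%), and 1059 (2.13%) had an unadjusted p under 0.05, 678 (1.37%) higher and 381 (0.768%) lower. These counts rest on single libraries. For the first step they were 512 higher and 3426 lower without day 4 replicate 2, 1875 higher and 493 lower without day 0 replicate 1, and 880 in all without day 4 replicate 1. For the second they were 574 higher and 1765 lower without day 10 replicate 1, the opposite balance, 3120 higher and 184 lower without day 4 replicate 2, 454 in all without day 4 replicate 1 and 510 without day 10 replicate 2. No other tool was run on these values. Without day 0 replicate 1 the test called 35 regions from day 0 to day 4, and without day 0 replicate 2 it called 1; without day 10 replicate 1 it called 11 from day 4 to day 10. In these fits the lone library of a day is assumed to vary like the others. Both comparisons use the day 4 libraries, so their errors are linked. The comparison of day 10 with day 0, added after the data were seen, also called 0 regions, with 1742 (3.51%) at an unadjusted p under 0.05.

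**Figure D3:**
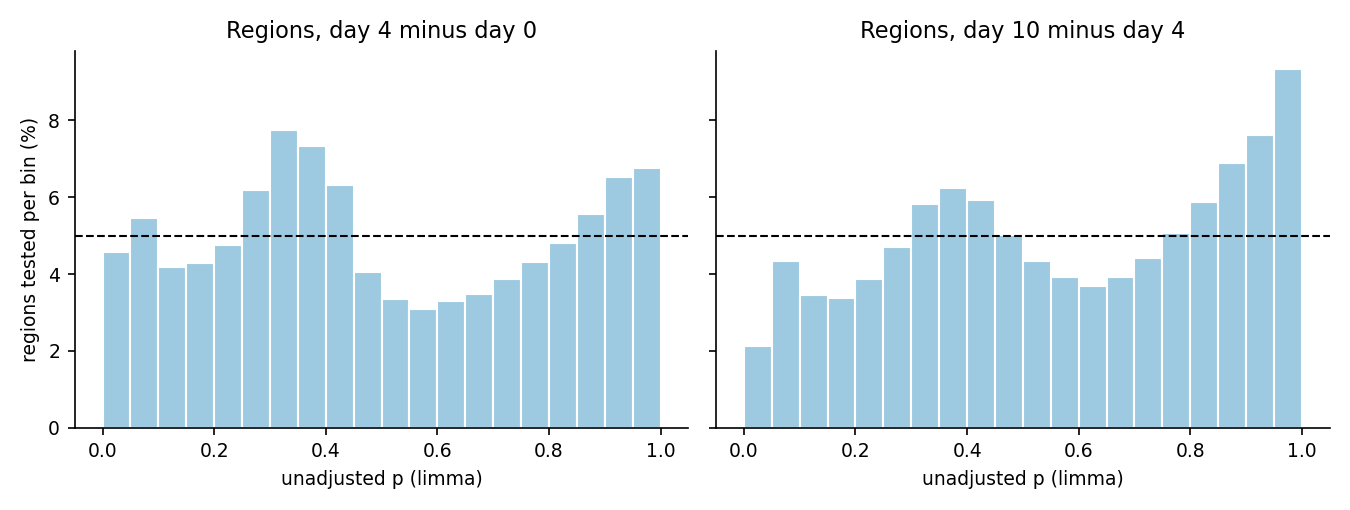
Distribution of unadjusted limma p-values over the 49627 regions tested, as the percentage of regions in each bin, for day 4 minus day 0 and day 10 minus day 4. The dashed line is 5% per bin, the level of evenly spread p-values, and the lowest bin holds 4.56% and 2.13% of regions, below that line in both comparisons.

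Presence and absence of peaks gave a coarser view. Between day 0 and day 4, 1344 regions (2.71% of those tested) went from no peak in either day 0 library to a peak in both day 4 libraries, and 582 (1.17%) did the reverse. Between day 4 and day 10, 1205 regions (2.43%) became covered and 433 (0.873%) lost coverage in this way. With 2 libraries against 2, an exact permutation test cannot go below p = 0.33, so these counts carry no test. The balance changed with list length: with all lists shortened to the 34165 strongest peaks, 831 regions were newly covered at day 4 and 1036 were lost, the opposite balance. Without day 4 replicate 1, which has the shortest list, the counts for day 10 against day 4 were 1483 newly covered and 7639 lost. The rule is then looser, since 1 library decides for day 4, and neither count can fall.

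Regions that changed coverage were mostly weak peaks, as were those on which duplicates disagreed. Ranking the peaks of each list by the deposited -log10 q, their median strength stood at percentile 23.3 for regions newly covered at day 4, 19.2 for those lost at day 4, 20.3 for those newly covered at day 10 and 16.5 for those lost at day 10. Regions on which the libraries of a day disagreed had a median percentile of 23.1 and those present in all 6 libraries one of 69.6. Gene ends made up 10.9% and 2.92% of the regions newly covered and lost at day 4, and 4.32% and 7.39% at day 10, against 5.00% to 6.39% of regions covered in 2 to 4 libraries and 39.6% of those covered in all 6. Regions that change in this way lack a peak in at least 2 libraries by definition. Across the 3 days, 489 regions were absent on day 0 and present in all 4 DMSO libraries, and 157 were present in both day 0 libraries and absent in all 4. A further 243 regions had peaks in both day 4 libraries alone, 601 in both day 10 libraries alone, and 184 in both libraries of day 0 and of day 10 but neither of day 4. Of the 1344 regions newly covered in KMS34 at day 4, KMS11 libraries had a peak in 24.9% and 9.75% on day 0, 21.3% and 28.7% on day 4, and 22.2% and 25.2% on day 10. For the 582 regions lost at day 4 the shares were 19.6% and 10.7%, 22.3% and 21.0%, and 13.2% and 21.5%. Over all 49627 regions tested they were higher, at 53.2% and 38.6%, 52.5% and 56.3%, and 49.3% and 53.7%.

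The regions with the most covered bases among those newly covered at day 4 lay at gene ends. CpG pairs were counted in promoter windows, not in the regions themselves. The RefSeq promoter sequences of FST, MAPK12 and CRIP2 are printed for their base composition, together with those of a gene near the mTOR pathway (CASTOR1), of a promoter with a peak at day 4 only (SMOC1) and of a promoter lost after day 0 (GASK1B). Each runs 5′ to 3′ on the gene's strand (assembly GRCh38.p14, whose chromosomes share hg38 coordinates), and capitals mark matches to the GC box GGGCGG on either strand.
FST, chr5:53480379-53480678, + strand: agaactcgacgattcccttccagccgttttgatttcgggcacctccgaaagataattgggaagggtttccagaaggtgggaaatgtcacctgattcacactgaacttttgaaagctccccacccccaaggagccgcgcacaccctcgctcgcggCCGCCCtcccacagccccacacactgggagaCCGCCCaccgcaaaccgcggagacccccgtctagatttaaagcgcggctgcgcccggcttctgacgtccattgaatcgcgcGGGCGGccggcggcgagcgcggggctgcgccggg
MAPK12, chr22:50261634-50261933, - strand: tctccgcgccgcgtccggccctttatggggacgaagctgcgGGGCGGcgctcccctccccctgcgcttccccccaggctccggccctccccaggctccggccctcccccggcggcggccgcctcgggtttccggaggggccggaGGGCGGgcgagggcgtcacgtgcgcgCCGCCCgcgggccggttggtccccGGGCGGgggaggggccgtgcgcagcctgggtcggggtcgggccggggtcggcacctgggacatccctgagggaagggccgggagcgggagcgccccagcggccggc
CRIP2, chr14:105474571-105474870, + strand: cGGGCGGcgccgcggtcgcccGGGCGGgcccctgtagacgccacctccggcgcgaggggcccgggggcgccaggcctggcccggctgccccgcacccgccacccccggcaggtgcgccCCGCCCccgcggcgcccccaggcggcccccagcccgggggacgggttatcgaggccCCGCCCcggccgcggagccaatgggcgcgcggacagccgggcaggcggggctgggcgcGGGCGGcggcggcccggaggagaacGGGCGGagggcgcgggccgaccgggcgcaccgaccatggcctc
CASTOR1, chr22:30289456-30289755, - strand: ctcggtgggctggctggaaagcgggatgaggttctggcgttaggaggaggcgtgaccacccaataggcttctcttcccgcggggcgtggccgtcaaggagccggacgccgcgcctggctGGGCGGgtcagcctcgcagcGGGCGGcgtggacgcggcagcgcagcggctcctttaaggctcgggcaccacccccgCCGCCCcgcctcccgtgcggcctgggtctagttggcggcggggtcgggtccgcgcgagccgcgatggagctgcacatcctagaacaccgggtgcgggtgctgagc
SMOC1, chr14:69879166-69879465, + strand: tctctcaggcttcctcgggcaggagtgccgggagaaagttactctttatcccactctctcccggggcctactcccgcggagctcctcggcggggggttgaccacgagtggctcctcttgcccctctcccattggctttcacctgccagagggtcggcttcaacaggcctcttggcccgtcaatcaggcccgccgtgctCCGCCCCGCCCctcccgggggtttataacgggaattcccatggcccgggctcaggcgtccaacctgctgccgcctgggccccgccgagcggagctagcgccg
GASK1B, chr4:158172976-158173275, - strand: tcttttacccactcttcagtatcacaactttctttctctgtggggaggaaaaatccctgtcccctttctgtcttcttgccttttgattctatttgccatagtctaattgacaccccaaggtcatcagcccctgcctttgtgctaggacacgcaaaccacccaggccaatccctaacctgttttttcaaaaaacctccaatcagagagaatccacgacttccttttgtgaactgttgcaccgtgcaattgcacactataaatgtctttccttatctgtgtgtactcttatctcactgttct
GC content is 63.7% for FST, 81.7% for MAPK12, 86.0% for CRIP2, 72.7% for CASTOR1, 67.7% for SMOC1 and 43.7% for GASK1B. The GC box occurs 3 times for FST, 4 for MAPK12, 6 for CRIP2, 3 for CASTOR1 and 2 for SMOC1, and these letters are not in the GASK1B window. CpG pairs number 32 in the FST window, 42 in that of MAPK12, 50 in that of CRIP2 and 3 in that of GASK1B, against a median of 14 over all promoter windows. Over the windows covered in all 6 libraries the median is 28. The promoter window of TBX1, not printed, holds 22 CpG pairs, and day 4 peaks covered 13 and 30 bp of it. The windows of AVPR2, which no day 4 peak reached, hold 4 and 6.

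FST encodes follistatin, a secreted protein that binds activins. Its promoter region (chr5:53479635-53480922, over the gene's 5′ end) had 0 and 0 bp covered on day 0, 1036 and 994 bp on day 4, and 1164 and 314 bp on day 10. The choice of region fixes day 0 at 0 bp and day 4 above it, so day 10 could not lie below day 0. Both day 10 libraries had a peak there. The log2 difference of day 4 minus day 0 was 3.54 ± 0.50 (SE, 2 libraries against 2), with an adjusted p of 0.231 that did not pass. MAPK12 encodes a p38 kinase, and its promoter region (chr22:50260814-50262048) had 0 and 0, then 894 and 1119, then 1197 and 413 bp, a log2 difference of 3.52 ± 0.44 and an adjusted p of 0.231. The MAPK12 region too had no peak on day 0, by the choice of region, and peaks in every DMSO library. By deposited -log10 q, the day 4 peaks at these promoters lay at percentiles 28.1 and 40.4 (FST) and 33.4 and 40.7 (MAPK12) of their lists, counted from the weakest peak.

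TBX1, a T-box transcription factor of the 22q11 region, had 0 and 0, 804 and 792, and 991 and 311 bp over its 5′ end (chr22:19756658-19757648), a log2 difference of 3.22 ± 0.57 and an adjusted p of 0.477. CRIP2, a LIM-domain protein, had 0 and 0, 559 and 990, and 825 and 0 bp (chr14:105473678-105474795; log2 difference 3.14 ± 1.03). AVPR2, the V2 vasopressin receptor, had 0 and 0, 554 and 993, and 755 and 0 bp (chrX:153903270-153904579; log2 difference 3.14 ± 1.03). The CRIP2 and AVPR2 regions were covered in both day 4 libraries and 1 day 10 library, and neither passed (adjusted p = 0.881 for both). All 5 of these regions overlap a promoter window, as did 6.85% of the 1344 regions newly covered at day 4. The day 4 peaks of AVPR2 stopped short of its windows, and that of CRIP2 reached its window in replicate 2 only, by 152 bp.

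The 5 regions with most covered bases among those lost at day 4 lay outside protein-coding genes. A region 11130 bp from DLD (dihydrolipoamide dehydrogenase, chr7:107878993-107879977) had 985 and 814 bp on day 0, 0 and 0 bp on day 4, and 299 and 252 bp on day 10, a log2 difference of -3.26 ± 0.71. Unlike most of the lost regions it ranked at percentiles 54.9 and 47.6 of the day 0 lists and 60.6 and 75.4 of the day 10 lists. A region 29862 bp from TOX2 (chr20:43883792-43884990), an HMG-box factor, had 1163 and 423, 0 and 0, and 243 and 260 bp. A region 1838 bp from SP140 (chr2:230318409-230319347), a lymphoid chromatin reader, had 939 and 520, 0 and 0, and 470 and 289 bp. These 3 regions had peaks again in both day 10 libraries. A region 89 bp from SLC38A2 (chr12:46356996-46358099), an amino acid transporter, had 949 and 591, 0 and 0, and 820 and 0 bp. One on chromosome 4 (chr4:130110081-130111162), 993444 bp from the nearest protein-coding gene, C4orf33, had 913 and 641, 0 and 0, and 0 and 465 bp. Both returned in 1 day 10 library. Log2 differences of these 4 ran from -3.06 to -2.95, and the adjusted p was 0.881 for all 5.

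From day 4 to day 10, the regions newly covered with most bases lay in gene bodies or between genes. A region within DEPTOR, an inhibitor that binds mTOR (chr8:119946993-119947967), had 0 and 0, 0 and 0, and 951 and 439 bp, a log2 difference of 2.90 ± 0.93. It was covered at day 10 only. A region in NCKAP1, a subunit of the actin-regulating WAVE complex (chr2:182971859-182972565), had 502 and 532, 0 and 0, and 707 and 585 bp (log2 difference 2.88 ± 0.63). One 361078 bp from SOX9 (chr17:71759047-71759942) had 462 and 362, 0 and 0, and 497 and 800 bp, and one in the semaphorin gene SEMA5A (chr5:9537307-9538464) had 333 and 611, 0 and 0, and 1146 and 243 bp. These 3 were therefore covered on day 0 and day 10 and missed in both day 4 libraries. A region in PTPRN2, a receptor-type phosphatase-like protein (chr7:157643789-157645286), had 629 and 0, 0 and 0, and 1165 and 165 bp. The log2 differences of SOX9, SEMA5A and PTPRN2 were 2.86 ± 0.74, 2.70 ± 0.81 and 2.52 ± 1.13, and the adjusted p of all 5 was 1.00.

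Regions lost between day 4 and day 10 included the promoter of SMOC1, a secreted matrix protein that binds calcium (chr14:69879141-69879822). It had 0 and 0, 553 and 568, and 0 and 0 bp, a log2 difference of -2.74 ± 0.92, and so was covered at day 4 alone. A region in ANO4, of the anoctamin family (chr12:101027330-101028128), had 0 and 0, 478 and 766, and 0 and 0 bp. One on chromosome 22, with no protein-coding gene near it (chr22:11055773-11056593), had 0 and 0, 320 and 821, and 0 and 0 bp. A region 14931 bp from the claudin gene CLDN12 (chr7:90430885-90431679) had 0 and 354, 537 and 772, and 0 and 0 bp, and one in SPMIP1 (chr7:128869318-128870115) had 258 and 0, 798 and 498, and 0 and 0 bp. The choice of these 5 regions fixes day 10 at 0 bp and favours high day 4 values. That day 4 stood above day 0 in them is therefore no added result. Log2 differences ran from -2.91 to -2.65, with an adjusted p of 1.00 for all 5.

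**Figure D4:**
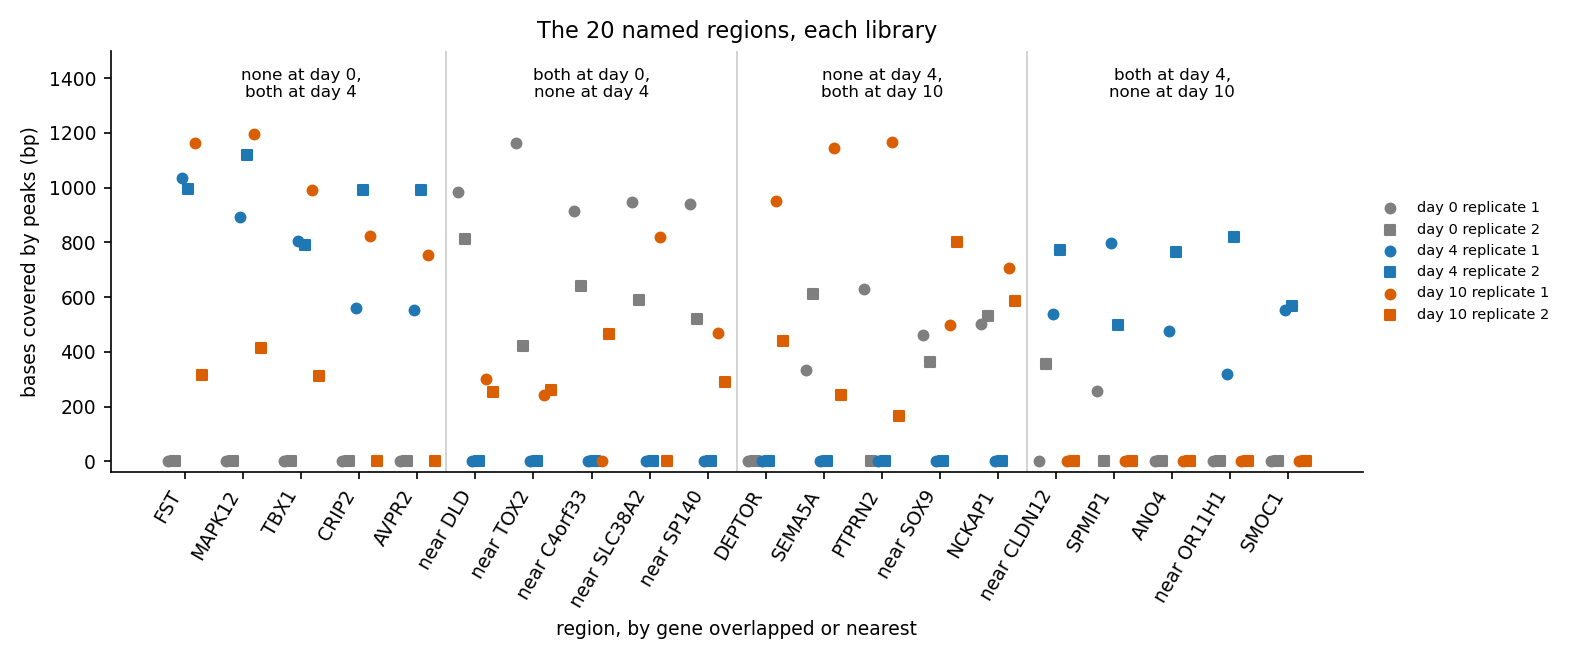
Bases covered by peaks (bp) in each of the 6 libraries for the 20 named regions, in 4 blocks of 5 by which days have peaks, with circles for replicate 1 and squares for replicate 2. Within the first block, FST, MAPK12 and TBX1 have peaks in all 4 DMSO libraries and 0 bp on day 0, and in the second block the sites near DLD, TOX2 and SP140 have 0 bp at day 4 only.

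A comparison made after these values were seen asked whether base composition accompanied the day. The RefSeq table holds 34789 distinct promoter windows on these chromosomes. Of the 134 windows newly covered at day 4, 71 (52.99%) had a GC content above 70%, against 0 of the 26 windows lost at day 4 and 19.5% of all windows. The share was 35.8% of the windows covered in all 6 libraries and 22.5% of those covered in 1 to 5. Median GC content was 71.3% for windows newly covered at day 4, 46.2% for those lost at day 4, 55.7% for the 57 newly covered at day 10 and 73.0% for the 42 lost at day 10. The 13618 windows covered in all 6 libraries had a median of 67.0% and the 18878 covered in none had 49.7%. Some windows belong to 1 gene and overlap, so they are not independent.

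Among the 803 windows above 80% GC, peaks covered 69.99% and 69.5% on day 0, 74.7% and 74.97% on day 4, and 74.5% and 69.4% on day 10. Both day 4 libraries and 1 of day 10 stood above day 0, and the other day 10 library did not. The 2 day 4 libraries, whose shares were close here, have the shortest and the longest list. With lists of equal length the shares were 67.4% and 68.5%, 74.7% and 67.1%, and 69.9% and 65.5%, so that day 4 replicate 2 no longer stood above day 0. KMS11 libraries gave 67.9% and 56.3% on day 0, 72.7% and 74.3% on day 4, and 73.3% and 70.4% on day 10. Whether the GC content of the fragments sequenced differed between libraries was not tested.

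**Figure D5:**
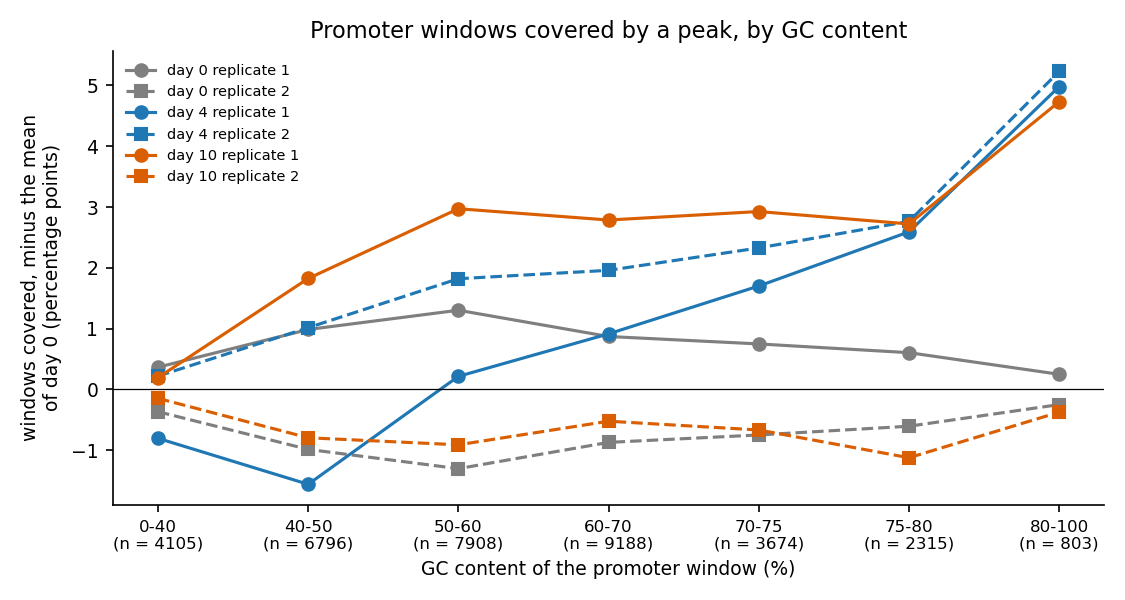
Percentage of promoter windows with a peak, minus the mean of the 2 day 0 libraries, by GC content of the window, for each KMS34 library. Both day 4 libraries and day 10 replicate 1 lie furthest above day 0 in the windows of more than 80% GC, with 74.5% to 74.97% covered, while day 10 replicate 2 lies with day 0 at 69.4%.

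Motif matches differed between these sets of windows, in a way that depended on the motif. The GC box GGGCGG was found on either strand in 75.4% of the 134 windows newly covered at day 4, 15.4% of the 26 lost at day 4, 38.6% of the 57 newly covered at day 10 and 64.3% of the 42 lost at day 10. It was in 74.9% of the windows covered in all 6 libraries and 44.9% of all windows. The TATA box TATAAA went the other way, with 5.22% and 23.1% for windows newly covered and lost at day 4, against 11.6% of all windows. The AP-1 motif TGANTCA was in 2.99% and 3.85% of windows newly covered and lost at day 4 and in 15.8% and 4.76% of those newly covered and lost at day 10, against 7.69% of all windows. The CCAAT box CCAAT was in 23.1% and 53.8% of windows newly covered and lost at day 4, against 34.6% of all windows. The E-box CACGTG, the CRE TGACGTCA and the ETS motif CCGGAAG were in 4.48%, 1.49% and 12.7% of windows newly covered at day 4 and in 7.24%, 1.84% and 10.2% of all windows. In the windows covered in all 6 libraries, these motifs were more frequent than at day 4, with 10.2%, 3.54% and 20.4%. The TATA box, the AP-1 motif and the CCAAT box were in 4.09%, 3.76% and 35.7% of the windows covered in all 6 libraries. All motifs were searched on both strands, none of them contains another, and a match is a description of letters, not a binding site.

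At the level of genes the test called 0 of 15992 genes (0%) between day 0 and day 4, with 606 (3.79%) at an unadjusted p under 0.05, of which 340 (2.13%) were higher and 266 (1.66%) lower. Without day 0 replicate 1 it called 17 genes, without day 0 replicate 2 or day 10 replicate 1 it called 1, and without day 10 replicate 2 it called 2. The higher share of 56.1% became 76.5% without scaling and 42.0% with lists of equal length. Between day 4 and day 10 it called 0 (0%), with 269 (1.68%) at an unadjusted p under 0.05, 167 (1.04%) higher and 102 (0.638%) lower. Without day 4 replicate 2 the unadjusted counts became 188 higher and 763 lower for the first step and 678 higher and 87 lower for the second. Without day 10 replicate 1 those of the second step were 219 higher and 687 lower, and without day 4 replicate 1 they were 57 higher and 117 lower. Coverage in both libraries of the later day and neither of the earlier was seen for 114 genes (0.713%) at day 4 and 53 (0.331%) at day 10, and the reverse for 26 (0.163%) and 24 (0.15%).

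Of the 114 genes newly covered at day 4, the 5 with most covered bases were MTA1, TBX1, AVPR2, CAMK2N1 and CASTOR1. MTA1, a subunit of the NuRD chromatin remodeller, had 0 and 0, 1081 and 1463, and 1419 and 0 bp (log2 difference 2.85 ± 0.75), and its window also holds the CRIP2 region described above. CAMK2N1, an inhibitor of the calcium-dependent kinase CaMKII, had 0 and 0, 679 and 818, and 882 and 667 bp (2.22 ± 0.39). CASTOR1, the arginine sensor upstream of mTORC1, had 0 and 0, 527 and 914, and 743 and 0 bp (2.15 ± 0.63). For TBX1 and AVPR2 the peaks are those of the gene-end regions above, and their gene differences were 2.30 ± 0.45 and 2.23 ± 0.62. Only CAMK2N1 and TBX1 among these 5 kept peaks in every DMSO library. All 5 had an adjusted p of 1.00.

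Genes lost at day 4 carried little coverage to begin with. GASK1B, a Golgi-associated kinase family member, had 734 and 591, 0 and 0, and 0 and 0 bp, a log2 difference of -2.12 ± 0.61, and stayed uncovered. FAM135B had 519 and 606, 0 and 0, and 506 and 428 bp, and FMO2, a flavin-containing monooxygenase, had 491 and 483, 0 and 0, and 333 and 460 bp. TMEM100 had 674 and 219, 0 and 0, and 271 and 166 bp. These 3 were covered again in both day 10 libraries. LMOD3, a muscle actin nucleator, had 508 and 436, 0 and 0, and 288 and 0 bp. The 4 log2 differences ran from -1.95 to -1.61 with an adjusted p of 1.00.

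Genes newly covered at day 10 were ASB5 (0 and 0, 0 and 0, 643 and 445 bp), ELFN2 (0 and 0, 0 and 0, 731 and 328 bp), NKAIN4 (563 and 0, 0 and 0, 1311 and 242 bp), the laminin gene LAMA3 (822 and 0, 0 and 0, 511 and 529 bp) and the podosome adaptor SH3PXD2B (0 and 229, 0 and 0, 624 and 386 bp). Log2 differences of day 10 minus day 4 ran from 1.77 to 2.00. ASB5 and ELFN2 had peaks on day 10 only, and the other 3 also in 1 day 0 library. Genes lost at day 10 included TNFRSF13C, the receptor for the B cell survival factor BAFF, with 0 and 0, 526 and 419, and 0 and 0 bp (log2 difference -1.78 ± 0.66), and its window overlaps SHISA8 and CENPM. ANKRD40CL had 0 and 0, 299 and 651, and 0 and 0 bp, and CATSPER4, a sperm calcium channel subunit, had 0 and 0, 284 and 550, and 0 and 0 bp. These 3 had peaks at day 4 alone. The serotonin receptor gene HTR1F had 0 and 508, 502 and 870, and 0 and 0 bp, and ITIH5 had 411 and 0, 279 and 925, and 0 and 0 bp. None passed, with an adjusted p of 1.00 for each.

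The t(4;14) genes NSD2 and FGFR3, and the myeloma genes IRF4, MYC, CCND2 and MAF, had peaks in every library. NSD2, the target of the study, had 1964 and 1220 bp on day 0, 2391 and 2615 bp on day 4, and 4060 and 690 bp on day 10. The day 4 values were above those of day 0, and the 2 day 10 libraries held the highest and the lowest value of all. The log2 differences were 0.61 ± 0.54 (day 4 minus day 0) and -0.50 ± 0.54 (day 10 minus day 4), and without day 10 replicate 2 the second was 0.39. FGFR3, the receptor tyrosine kinase on the other side of the breakpoint, had 1701 and 1099, 1546 and 2303, and 2040 and 1544 bp, with differences of 0.39 ± 0.18 and -0.11 ± 0.18. IRF4, the factor on which myeloma cells depend, had 1070 and 979, 1582 and 1575, and 3114 and 1233 bp. Its day 4 values were above both of day 0 (0.52 ± 0.26), and day 10 overlapped with them (0.26 ± 0.26). MYC had 2622 and 2198, 2165 and 2932, and 3406 and 2049 bp. CCND2, the D-type cyclin, had 2301 and 1715, 1845 and 2646, and 2667 and 1692 bp. MAF, the factor activated by other myeloma translocations, had 5394 and 4236, 4575 and 6802, and 7539 and 3583 bp. The ranges of MYC, CCND2 and MAF overlapped between all days, and none of the 6 genes passed (adjusted p of 1.00 throughout).

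Lists of genes for pathways of plasma cells, stress, signalling and other cell types were read against the background of all genes tested. Of 519 genes on 25 lists, 474 were tested and 0 were called in either comparison. At day 4 minus day 0, 16 of them (3.38%: 6 higher, 10 lower) had an unadjusted p under 0.05, near the 3.79% of all genes. At day 10 minus day 4 the share was 3.16% (6 higher, 9 lower) beside 1.68%. The median absolute log2 difference was 0.13 and 0.12 for list genes and 0.14 and 0.12 for all genes. In the next paragraphs each list is given by its median log2 difference, first for day 4 minus day 0 and then for day 10 minus day 4, where the median of all genes was 0.00 in both, and the named members are those with the smallest unadjusted p, followed by log2 difference and SE. Every named member had an adjusted p of 1.00.

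The lists of identity genes had medians close to 0. The 24 plasma cell identity genes had medians of -0.03 and -0.06. FCRL5, a surface receptor of plasma cells, had 1536 and 792, 380 and 613, and 655 and 819 bp, below day 0 at day 4 (-0.95 ± 0.28, and 0.41 ± 0.28 at the later step). GPRC5D, a myeloma surface antigen, had 1222 and 684, 409 and 714, and 971 and 433 bp (-0.60 ± 0.25). IKZF3, the lymphoid factor Aiolos, differed by 0.31 ± 0.18 between day 4 and day 10. For 17 B cell identity genes tested of 19 the medians were 0.05 and -0.01. BANK1 differed by -0.36 ± 0.19 and the MHC class II activator CIITA by 0.27 ± 0.17 at the first step, CD24 by -0.42 ± 0.23 and the repressor BACH2 by 0.36 ± 0.20 at the second. For the 16 genes of the t(4;14) and NSD2 list the medians were 0.12 and -0.08. The chemokine receptor CCR1 had 1979 and 1594, 921 and 1470, and 1643 and 1191 bp (-0.55 ± 0.18), and both day 4 values were below those of day 0. CCND3 differed by -0.27 ± 0.18 at the second step. The 24 genes of H3K36 and H3K27 methylation had medians of 0.07 and -0.09, with ASH1L, an H3K36 methyltransferase, at -0.54 ± 0.18 and then 0.43 ± 0.18, the demethylase KDM4B at 0.55 ± 0.22, and the acetyltransferase CREBBP at -0.47 ± 0.18 at the second step.

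The medians of the signalling lists lay between -0.08 and 0.14. Their named members differed by more, which the choice by smallest unadjusted p favours in every list. The 25 AP-1 and immediate early genes had medians of 0.14 and -0.07. MAFK, a small Maf partner, had 564 and 0, 831 and 1123, and 1515 and 335 bp (1.56 ± 0.59), and the mRNA decay factor ZFP36 had 2792 and 1935, 3312 and 3273, and 3916 and 2269 bp (0.45 ± 0.19). Both were higher in the 2 day 4 libraries than in those of day 0, and day 10 spanned both. BATF and EGR3 differed by 0.81 ± 0.64 and 0.24 ± 0.20 at the second step. The 16 MAPK feedback genes had medians of -0.01 and -0.04, with the phosphatase DUSP5 at 0.47 ± 0.21 and then -0.36 ± 0.21, SPRY1 at -0.32 ± 0.17, and CCND1 at -0.36 ± 0.34 at the second step. The 19 NF-kappaB genes tested of 22 had medians of 0.03 and 0.03. NFKBIZ, a nuclear IkappaB protein, had 3462 and 2351, 1881 and 2342, and 3513 and 2268 bp (-0.43 ± 0.16, then 0.37 ± 0.16), LTA differed by 0.39 ± 0.20, and the adaptor TRAF1 by 0.58 ± 0.22 at the second step. The 24 interferon response genes tested of 25 had medians of 0.01 and -0.06, with IFIT3 at -0.59 ± 0.24, MX1 at 0.46 ± 0.21, and OAS2 and OASL at -0.24 ± 0.17 and 0.25 ± 0.20 at the second step. The 25 cytokine and growth factor genes tested of 27 had medians of 0.06 and -0.08. TNFRSF13C differed by 1.73 ± 0.66 at the first step, and IL2RA by -0.53 ± 0.28 and then 0.61 ± 0.28.

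Stress and metabolism lists stayed near 0. The 24 genes of the unfolded protein response and secretion had medians of -0.02 and 0.02. ATF6, a sensor of endoplasmic reticulum stress, had 3249 and 2036, 853 and 2076, and 2185 and 1993 bp (-0.86 ± 0.27), and only day 4 replicate 1 was low. SEL1L, of the degradation complex of the endoplasmic reticulum, differed by -0.58 ± 0.20, the kinase EIF2AK3 (PERK) by 0.43 ± 0.16 and SDF2L1 by -0.59 ± 0.26, the latter pair at the second step. The 17 ATF4 and amino acid genes tested of 18 had medians of 0.08 and -0.08, with ATF5 at 0.51 ± 0.19 and PSAT1 at -0.31 ± 0.19, then TRIB3 at -0.48 ± 0.19 and SLC3A2 at 0.27 ± 0.19. The 14 heat shock genes had medians of 0.08 and -0.11, with HSPD1 and HSPE1, which share a promoter, at 0.35 ± 0.19 and 0.35 ± 0.20, then HSPH1 at -0.24 ± 0.19 and HSPA8 at -0.19 ± 0.18. Hypoxia and glycolysis genes (21 tested of 23) had medians of 0.04 and 0.00, with PFKFB4 at 0.44 ± 0.21 and VEGFA at 0.27 ± 0.16, then ADM at -0.50 ± 0.22 and KDM3A at -0.35 ± 0.20. Oxidative stress genes (14 tested of 16) had medians of 0.10 and -0.08, with KEAP1 at 0.47 ± 0.18 and SRXN1 at 0.50 ± 0.24, then ME1 at -0.29 ± 0.20 and SLC7A11 at -0.25 ± 0.19. Sterol and lipid synthesis genes (18 tested of 19) had medians of 0.00 and -0.05. INSIG1, which retains the sterol sensor in the endoplasmic reticulum, differed by 0.22 ± 0.16 and -0.20 ± 0.16. The 16 p53 and DNA damage genes tested of 17 had medians of 0.08 and -0.14, with BBC3 (PUMA) at 0.43 ± 0.29 and -0.52 ± 0.29, GADD45B at 0.32 ± 0.27 and GADD45A at -0.42 ± 0.19 at the second step.

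Growth and housekeeping lists also had medians near 0. The 31 cell cycle genes had medians of -0.05 and 0.01. PLK1, the mitotic kinase, had 1294 and 667, 1413 and 1687, and 1568 and 492 bp (0.60 ± 0.29, then -0.69 ± 0.29), and the spread of its duplicates on day 0 and day 10 spanned most of that range. AURKB differed by 0.28 ± 0.19, and CCNE1 by -0.40 ± 0.19 at the second step. The 21 apoptosis genes tested of 22 had medians of 0.01 and -0.10, with BIRC2 at -0.51 ± 0.20 and BCL2 at -0.38 ± 0.20 at the first step. The 22 adhesion and migration genes had medians of -0.02 and -0.03, with CD44 at -0.39 ± 0.17, then the integrin ITGB2 at 0.55 ± 0.29 and CCR7 at -0.61 ± 0.38. The 29 developmental regulators tested of 32 had medians of 0.10 and -0.01. ZIC1 differed by 0.62 ± 0.31 and TBX2 by 0.39 ± 0.21 at the first step, TCF7L2 by -0.50 ± 0.18 at the second. GATA3, the T cell factor, had 364 and 0, 0 and 196, and 785 and 460 bp (1.49 ± 0.56 at the second step), and both day 10 libraries were above the others. The 30 housekeeping genes had medians of -0.01 and -0.01. POLR2A and HPRT1 differed by 0.32 ± 0.17 and -0.32 ± 0.20 at the first step, and ACTB and HPRT1 by -0.39 ± 0.17 and 0.32 ± 0.20 at the second.

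Markers of other cell types gave list medians within 0.11 of 0. The 13 T and NK cell markers tested of 20 had medians of 0.11 and 0.08, with CD4 at 0.93 ± 0.47 and TRAT1 at -0.70 ± 0.42, then CD8A at -0.38 ± 0.21. The 12 myeloid markers tested of 17 had medians of 0.05 and 0.04. CD68 had 520 and 0, 387 and 933, and 1055 and 334 bp (1.09 ± 0.54) and CSF1R 368 and 0, 357 and 414, and 448 and 390 bp (0.78 ± 0.51). Neither set of day 4 values stood clear of day 0, and the CD68 window overlaps SENP3, EIF4A1, MPDU1, SOX15 and FXR2. VCAN and ITGAM differed by 0.22 ± 0.16 and -0.77 ± 0.84 at the second step. The 7 erythroid and megakaryocyte markers tested of 15 had medians of 0.01 and -0.03, with GP1BA at 0.39 ± 0.26 and KLF1 at -0.14 ± 0.18, then ITGA2B at 0.28 ± 0.30 and GP9 at -0.17 ± 0.20. The 13 stromal and endothelial markers tested of 20 had medians of -0.02 and 0.01, with VWF at 0.41 ± 0.19 and EMCN at -0.83 ± 0.40, then COL1A2 at -0.67 ± 0.40 and COL3A1 at 0.98 ± 0.60.

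The time course was set against that of KMS11, the second t(4;14) line of the study, in 1 fit over 12 libraries and 16447 genes. The change from day 0 to day 4 differed between the lines for 0 genes (0%), with 912 (5.55%) at an unadjusted p under 0.05, and that from day 4 to day 10 for 0 genes (0%), with 379 (2.3%). Within the same fit KMS11 had 18 genes called between day 0 and day 4 (0.109%), 16 higher and 2 lower. That count was 0 without KMS11 day 4 replicate 2, 2 without KMS11 day 4 replicate 1, 645 without KMS11 day 0 replicate 1 and 3 to 17 without any other library, and under the other settings it ran from 0 without scaling to 76 with windows around gene ends. Since the difference between the lines itself called none, the courses are not shown to differ. Without KMS11 day 0 replicate 1, which leaves the shortest list of the 12 (24979 peaks) alone for that day, 189 genes were called for the first step, 185 of them with the lower change in KMS34.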

How the data were processed

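ATAC-seq of 22 libraries was deposited as 1 peak list per library, and the 6 KMS34 libraries without degrader were analysed, with 6 KMS11 libraries for comparison. Per the submitters' processing notes, fastp, BWA, SAMtools, Picard, MACS3 and deepTools were used with hg38; of their versions, any Tn5 shift, the removal of duplicates and the calling thresholds nothing is stated. Among the deposited values only the -log10 q of each peak was used, for ranking and filtering within each list; its minimum is 2.00. Depth is not known, and list length (34165 to 52518 peaks) stands in its place. The other deposited columns (score, fold enrichment, -log10 p, summit) were not used.

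Peaks were merged into regions where they overlapped or touched (Python 3.11.15, pandas 2.3.3), and covered bases were checked against bedtools 2.31.1. Genes are RefSeq protein-coding genes of GRCh38.p14 with 5 kb either side, and entries on patches and scaffolds were left out. limma 3.58.1 (R 4.3.3) was fitted to log2(covered bases + 100 bp for regions, 200 bp for genes) less the library median, with 1 mean per day, and was tested on simulated data. Adding bases understates the change of short features. Features covered in at least 2 of 6 libraries were tested. Promoter windows and sequences come from the RefSeq table, which holds a window for 15812 of 19821 genes and for 92 of 128 named genes.

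Up to 5 regions and 5 genes are named per direction and comparison: those called first and then, as none was called, those covered in both libraries of 1 day and neither of the other, with most covered bases. From each list the 2 members with the smallest unadjusted p are named, and in every case MYC, IRF4, MAF, CCND2, FGFR3 and NSD2. A few genes that this rule takes are not reported here. The members, lists and rules were chosen with earlier results of these data known. Alternatives tried were other scalings, list lengths, peak thresholds, bases added, filters, limma settings, sets of libraries, gene windows, a replicate block and leaving out each library.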

Additional observations from a re-analysis of the deposited data

How the results depend on the processing

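The 0 calls held in most settings. From day 0 to day 4, regions called numbered 1 after quantile normalization, 3 with 300 bp added, 204 when regions covered in 1 library were tested and 413 in a fit over all 22 libraries, and 0 to 35 when leaving out a library, the 35 without day 0 replicate 1. From day 4 to day 10 they numbered 13 with regions covered in 1 library, 440 over all 22 libraries, and 0 to 11 when leaving out a library, the 11 without day 10 replicate 1. Of the 413 and 440 regions, 81.6% and 86.8% had no peak in any KMS11 library, against 28.6% of regions tested, where libraries without a peak have equal values. A fit over the 10 KMS34 libraries called 0 in both steps. From day 0 to day 10 it called 2, and the regions called numbered 5 with 300 bp added, 46 with regions covered in 1 library, 581 over all 22 libraries and up to 24 when leaving out a library, the 24 without day 0 replicate 1. Genes called from day 0 to day 4 numbered 1 after quantile normalization, 3 over all 22 libraries and 0 to 17 when leaving out a library, the 17 without day 0 replicate 1. The first-step difference between lines called 2 genes with lists of equal length, 1 with peaks of -log10 q of 5 or more, 1 with 50 bp added, 2 with windows of 1 kb around gene ends, and 0 to 189 when leaving out a library; the second step called 0 to 1.

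With the replicate number as a block, 1 gene was called from day 0 to day 4 and no other call changed. Deviations of same-numbered libraries correlated by -0.18 to 0.17, so the numbers were not taken to pair them. A block with the day 4 numbers crossed, chosen after seeing the data, called 0 regions and 0 genes in both steps.

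Regions newly covered at day 4 numbered 831 with lists of equal length, and 2482 to 11723 when leaving out a library. Those lost at day 4 numbered 314 with peaks of -log10 q of 5 or more, 1036 with lists of equal length, 1090 where 50% of the region had to be covered, and 724 to 4712 when leaving out a library. At day 10 the counts when leaving out a library were 1483 to 7623 newly covered and 749 to 7639 lost. Regions newly covered per region lost, 2.31 at day 4, became 0.802 with lists of equal length and 0.58 to 16.2 when leaving out a library; at day 10, 2.78 became 0.194 to 8.96. With a library left out, 1 library alone decides for its day, so the rule is looser and such counts cannot be lower. The ratios with a library left out follow that looser rule too. Counts with a library left out were chosen after seeing the data, and what else moved the counts was not tested.

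Of 143 named differences, 21 values under settings other than leaving out a library changed sign, none of which had passed. Another 21 values, of 15 features, passed under some setting, among them the MAPK12 region in 4 settings and the FST region in 3. With windows around gene ends, the second step gave -0.43 for VCAN, 0.042 for FGFR3, -0.016 for MYC, 0.050 for CCND1, -0.17 for BACH2, 0.13 for CCND3 and -0.018 for EIF2AK3, and the first 0.0078 for CCR1, 0.026 for ASH1L, 0.18 for BCL2 and 0.0080 for CD44. With lists of equal length, the second step gave -0.056 for ITGA2B and 0.023 for CCND2, and the first -0.0040 for CSF1R, -0.12 for MX1, -0.076 for MYC, -0.050 for GADD45B and -0.14 for CD68. With peaks of -log10 q of 5 or more, CCND2 gave 0.0022 at the second step, and MYC -0.019 and VWF -0.071 at the first. Leaving out a library gave, at the second step, -0.79 to 0.074 for CCND1, -0.38 to 0.038 for GP9, -0.11 to 0.63 for IRF4, -0.023 to 0.58 for ITGA2B, -0.41 to 0.16 for MAF, -0.071 to 0.14 for MYC and -1.40 to 0.39 for NSD2, and, at the first, -0.029 to 0.67 for GADD45B and -0.30 to 0.0099 for KLF1.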

Other observations

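Promoter windows of 6 genes that gained or lost a peak are given as values, chosen after they were seen and with no test. An XBP1 window (chr22:28800028-28800327), of the factor that drives plasma cell secretion, had 0 and 0 bp covered on day 0, 200 and 231 bp on day 4, and 291 and 300 bp on day 10, while the gene as a whole was covered in all 6 libraries. LAT, the adaptor of the T cell receptor, had 0 and 0, 207 and 131, and 300 and 280 bp over a window at chr16:28984802-28985101. The XBP1 window and this LAT window had peaks in every DMSO library and none on day 0. Another LAT window, overlapping the first (chr16:28984553-28984852), had 0 and 0, 0 and 0, and 240 and 73 bp, with peaks at day 10 alone. STAT5A, a cytokine-activated transcription factor, had 0 and 0, 145 and 181, and 263 and 0 bp (chr17:42288248-42288547), and a window of the tyrosine kinase SYK had 0 and 0, 188 and 216, and 0 and 0 bp (chr9:90801350-90801649). A second, overlapping SYK window (chr9:90801569-90801868) had 0 and 0, 296 and 177, and 172 and 0 bp, so that it and the STAT5A window were covered in 3 of 4 DMSO libraries. TNFSF14, the ligand LIGHT, had 0 and 0, 0 and 0, and 51 and 154 bp (chr19:6670111-6670410), with peaks at day 10 alone. TLR3, a sensor of double-stranded RNA, had 61 and 284, 0 and 0, and 0 and 164 bp (chr4:186068906-186069205), and lacked a peak on day 4.

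Of the regions present in all 4 DMSO libraries and absent on day 0, those with most covered bases after MAPK12 and FST were at CAMK2N1 (679 and 818 bp on day 4, 882 and 667 bp on day 10) and at GAMT, the enzyme of the last step of creatine synthesis (522 and 799 bp, 1017 and 669 bp). Of the 157 regions present on day 0 alone, the one with most covered bases lay in the axon guidance receptor gene ROBO2, with 797 and 495 bp.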
